A study of Mus musculus with 6 samples.

Results

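Potassium and voltage-gated calcium channel subunits were examined in RNA from the aortic arch and thoracic aorta of mice. They were taken as every row of the expression tables whose gene symbol starts with Kcn or Cacn, which gave 124 of 36557 rows and 120 symbols, since 4 rows are second copies of a symbol. These came from 2 genotypes, compared in 6 libraries after 4 weeks on the diet labelled HFD: 3 libraries from Apoe-/- MiR26b-/- mice and 3 from Apoe-/- control mice. All animals therefore lacked apolipoprotein E, which leads to poor clearance of cholesterol-rich lipoproteins and to plaque, and the knockouts also lacked the microRNA gene Mir26b. The labels give neither the animals' age, sex or strain nor whether the Mir26b deletion was limited to a cell type, and they do not state whether libraries and animals correspond 1 to 1, so a p-value here covers the spread among libraries, which may be technical.

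Potassium channels let potassium leave the cell and hold the membrane of arterial smooth muscle at a negative voltage. When they close, the membrane depolarises, L-type calcium channels open, and the entering calcium makes the muscle contract. In macrophages and T cells, potassium channels set the driving force for calcium entry, and potassium efflux is a trigger of inflammasome activation. Voltage-gated calcium channels consist of a pore subunit (Cacna1) with accessory beta (Cacnb), alpha2delta (Cacna2d) and, in some tissues, gamma (Cacng) subunits.

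The libraries held between 51634139 and 54817547 estimated counts each. Levels are given in TPM (a share of transcripts per transcript length, deposited as normalized values whose normalization is not given in the sources used here), with SD over n = 3 libraries per group. Differences are log2 folds, knockout over control, from edgeR's quasi-likelihood test on counts, and a call is a Benjamini-Hochberg adjusted p under 0.05 over 17392 tested rows, of which 10.3% were called (6.5% higher, 3.84% lower). Change was judged only where the mean over the 6 libraries was at least 0.5 TPM. Smooth muscle, the main cell of the aortic wall, was present by its markers: 8 of them, Acta2 and Myh11 included, summed to between 17419 and 20244 TPM in knockouts and between 25145 and 29250 TPM in controls. The 8 macrophage markers summed to between 1246 and 3667 TPM in knockouts and between 492 and 631 TPM in controls. On the first principal component, knockout replicate 3 fell in the gap between the genotypes, at -1.47 where the other knockouts stood at 36.2 and 42.1 and the controls between -30.8 and -20.8. The deletion of Mir26b itself was not checked here.

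Of the 124 channel rows, 2 were at 0 in all libraries, 95 passed the low-count filter and 64 rows (62 symbols, 47 potassium and 15 calcium channel genes) reached 0.5 TPM. Among these 64, 5 rose and 4 fell in the knockouts. These are 7.81% and 6.25% of the rows, where 7.09% and 4.26% of all 15363 tested rows at or above 0.5 TPM were called higher and lower. The number of called channel genes was thus near the background. The median log2 difference over the 64 rows was -0.19, with 39 negative, against -0.01 over all rows of that level. The TPM of the groups did not overlap in 7 rows with knockouts above (10.9%, background 20.4%). They also did not overlap in 16 rows with knockouts below (25%, background 14.3%, or 34.7% in either direction). In CPM (counts scaled to library size), 15 rows had knockouts above without overlap and 16 had them below. No share over all rows was computed in CPM. The 5 genes that rose were Kcnk13, Kcnj2, Kcnn4, Kcnq1 and Kcnj8, and the 4 that fell were Kcnd3, Cacna1d, Kcnj15 and Cacna2d1. By edgeR, 0 channel rows were called when any 1 library other than knockout replicate 3 was left out. Between 21 and 25 channel rows then had an unadjusted edgeR p under 0.05. Between 3710 and 4627 of all tested rows did so, with 17638 to 17760 rows tested. Over all tested rows, 7 rose and 5 fell without knockout replicate 1, and 40 and 22 without knockout replicate 2. The lowest edgeR adjusted p of any row was 0.0576, 0.0242 and 0.0524 without control replicates 1, 2 and 3. Without knockout replicate 3, 10 channel rows rose and 17 fell, where 18.7% and 12.9% of all rows of that level were called higher and lower. In all 6 libraries DESeq2 called 7 higher and 14 lower, against 12.7% and 8.16% of all rows of that level. Cacng7 has 2 rows with identical values, and both are counted among these 14, the 16 below without overlap and the 39 negative. The 2 identical rows of Kcnn1 are both among the 39. Limma on log2(TPM + 1) called 0 higher and 1 lower, against 2.67% and 1.34%. At an unadjusted p under 0.05 that fit held 23 channel rows and 4704 of all 17392 tested rows.

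**Figure D1:**
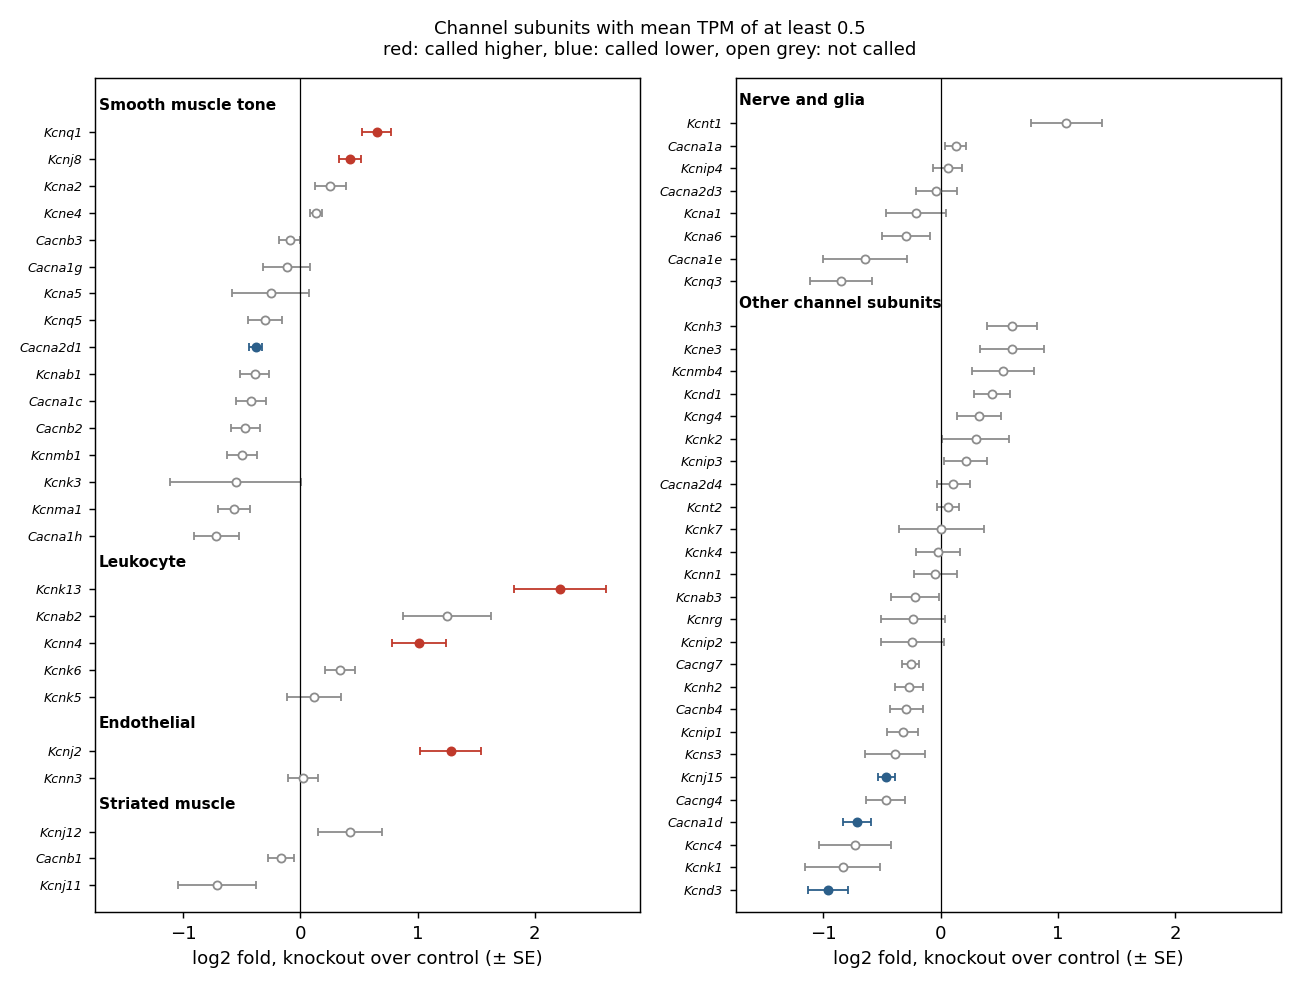
Log2 fold, knockout over control, of 60 channel symbols with a mean of at least 0.5 TPM, one row per gene grouped by list; points are edgeR estimates and bars their SE. The 5 genes called higher lie between 0.42 and 2.22 and the 4 called lower between -0.96 and -0.38.

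Just above the level of 0.5 TPM stood Cacna2d4 at a mean of 0.602 TPM and Kcna1 at 0.527 TPM, and just below it Kcnj10 at 0.493 TPM. Of the 31 tested rows below 0.5 TPM, 1 was called, Kcna7, named here because it passed. Kcna7 encodes a voltage-gated potassium channel of striated muscle. It had 0.208, 0.220 and 0.148 TPM in knockouts, against 0.0739, 0.0788 and 0.0579 TPM in controls, from a mean of 8.83 counts per library, and its change was not judged.

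Of the 10 most abundant channel rows of the aorta, 9 belong to the list of smooth muscle tone channels described next, and Kcnh2 does not. This ranking takes each row alone: Cacng7, outside the tone list, had 2 rows with identical values (mean 12.6 TPM each) that were not summed. Kcnab1, the Kv beta1 subunit that binds voltage-gated potassium channels, had the highest mean at 103 TPM, and Kcnh2, the pore subunit of the ERG channel best known from cardiac repolarisation, followed closely at 99.998 TPM. Kcnmb1, the beta1 subunit that raises the calcium sensitivity of the large-conductance BK channel, stood at 84.3 TPM. Others of the 10 were Cacna2d1 (37.8 TPM), Kcnj8 (31.6 TPM), Kcne4 (30.8 TPM), Cacnb3 (27.7 TPM), Cacna1c (21.2 TPM) and Cacnb2 (17.3 TPM). The ranges of Kcnab1 and Kcnh2 over the libraries overlapped, so their order was not resolved. Kcnh2 had 97.0, 80.3 and 107 TPM in knockouts and 97.9, 98.8 and 119 TPM in controls, with a log2 difference of -0.27 (SE 0.12) that was not called (edgeR adjusted p = 0.176).

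The smooth muscle tone list held 18 channel subunits, all at or above 0.5 TPM. Of these, 2 rose (Kcnj8 and Kcnq1), 1 fell (Cacna2d1) and 15 did not pass, near the background of 7.09% higher and 4.26% lower. Of the 18 log2 differences 14 were negative, where 7893 of 15363 were negative over all rows of that level. The median was -0.39, where the 8 smooth muscle markers had a median of -0.52 with 4 of 8 called lower. In this bulk tissue, fewer smooth muscle cells and less RNA per cell cannot be told apart. By library, the list's median log2 level over the control mean was -0.46, -0.59 and -0.15 in knockout replicates 1, 2 and 3, and between -0.04 and 0.05 in controls. The smooth muscle markers followed the same order, at -0.55, -0.67 and -0.35 in the knockouts and between -0.07 and 0.14 in the controls. Without knockout replicate 3, edgeR called 8 of the 18 lower and 2 higher, where 12.9% and 18.7% of all rows of that level were. DESeq2 called the same numbers in all 6 libraries, where it called 8.16% of such rows lower and 12.7% higher.

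**Figure D2:**
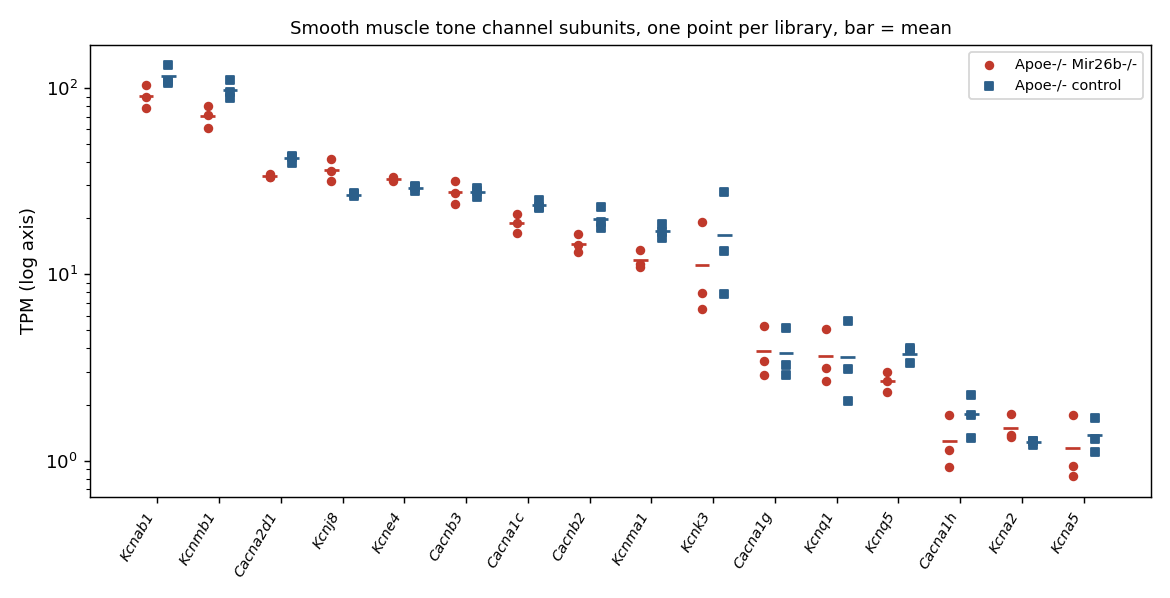
TPM (log axis) of 16 of the 18 smooth muscle tone channel subunits, one point per library, with knockouts (red circles) left of controls (blue squares) and bars at group means. Knockouts lie below controls without overlap for 7 genes and above for 3, and the groups overlap for 6. Over all tested rows at or above 0.5 TPM, 14.3% lie below and 20.4% above without overlap.

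The L-type calcium channel was represented by its vascular pore subunit Cacna1c, which carries the calcium current that drives contraction. Cacna1c had 16.8, 18.8 and 21.01 TPM in knockouts, against 22.7, 22.9 and 24.9 TPM in controls. The groups did not overlap, and the log2 difference of -0.42 (SE 0.13) was not called (edgeR adjusted p = 0.0778). Cacna2d1 encodes the alpha2delta subunit that carries the pore to the cell surface and is bound by gabapentin. Cacna2d1 had 34.5, 33.5 and 33.4 TPM in knockouts, against 43.3, 39.8 and 42.5 TPM in controls. It fell 1.30-fold (log2 -0.38, SE 0.06, edgeR adjusted p = 0.0251), with knockouts that lay close together and all controls above them. The beta subunits differed: Cacnb2 averaged 14.6 ± 1.64 TPM in knockouts and 19.9 ± 2.66 TPM in controls (log2 -0.47, not called), and Cacnb3 had overlapping groups (log2 -0.09, not called). Cacna1d encodes a second L-type pore, known from pacemaker and endocrine cells, which opens at more negative voltages. It had 4.29, 3.75 and 5.15 TPM in knockouts, against 6.46, 7.25 and 6.85 TPM in controls, and fell 1.64-fold (log2 -0.71, SE 0.12, edgeR adjusted p = 0.0300). When 1 library other than knockout replicate 3 was left out, the adjusted p lay between 0.0673 and 0.117 for Cacna2d1 and between 0.0856 and 0.126 for Cacna1d. Of the T-type pores, Cacna1h had a log2 difference of -0.72 (SE 0.20, not called) and Cacna1g of -0.12 (SE 0.20, not called); Cacna1h did not overlap in CPM but did in TPM.

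The BK channel, which opens with local calcium release and opposes contraction, is formed by the pore Kcnma1 with Kcnmb1. Kcnma1 had 11.4, 10.9 and 13.5 TPM in knockouts, against 17.0, 15.7 and 18.6 TPM in controls (log2 -0.57, SE 0.14, edgeR adjusted p = 0.0512). Kcnmb1 had 71.4, 60.7 and 79.9 TPM in knockouts, against 94.7, 88.4 and 111 TPM in controls (log2 -0.50, SE 0.13, edgeR adjusted p = 0.0539). All knockouts stood below all controls for both subunits, with adjusted p just over the threshold, and both were called lower without knockout replicate 3 (edgeR adjusted p = 0.00187 and 0.0115). Their adjusted p lay between 0.00187 and 0.178 and between 0.0115 and 0.176 over the leave-outs.

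Voltage-gated potassium channels of smooth muscle gave no call in either direction apart from Kcnq1 and, outside the tone list, Kcnd3. Kcnab1 averaged 90.5 ± 12.6 TPM in knockouts and 116 ± 14.7 TPM in controls (log2 -0.39, not called). Kcna5, the Kv1.5 pore, had a log2 difference of -0.26, Kcna2, the Kv1.2 pore, of 0.26, and Kcnq5, the Kv7.5 pore, of -0.30. None of these passed. Kcnd3, the Kv4.3 pore of the transient outward current, had 3.33, 2.72 and 4.33 TPM in knockouts, against 6.37, 6.08 and 7.30 TPM in controls. It fell 1.95-fold (log2 -0.96, SE 0.17, edgeR adjusted p = 0.0306), the largest fall among the called channel genes, and it was the channel gene that limma called on log2(TPM + 1). Kcnj15, which encodes the inward rectifier Kir4.2, had 13.2, 11.8 and 12.0 TPM in knockouts, against 15.0, 16.2 and 17.7 TPM in controls, and fell 1.38-fold (log2 -0.46, SE 0.07, edgeR adjusted p = 0.0274). Without 1 library other than knockout replicate 3, the adjusted p lay between 0.0807 and 0.129 for Kcnd3 and between 0.0811 and 0.124 for Kcnj15.

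Kcnj8 rose while most of the tone list had negative differences. It encodes Kir6.1, the pore of the vascular ATP-sensitive potassium channel found in smooth muscle and pericytes, whose opening relaxes vessels. Kcnj8 had 41.5, 36.02 and 31.7 TPM in knockouts, against 26.2, 26.9 and 27.2 TPM in controls. It rose 1.34-fold (log2 0.42, SE 0.09, edgeR adjusted p = 0.0417), with controls close together and every knockout above them. Its regulatory partner Abcc9, the sulfonylurea receptor SUR2, averaged 89.0 ± 6.93 TPM in knockouts and 91.3 ± 10.8 TPM in controls (log2 -0.06, SE 0.10, not called). The related pore Kcnj11, or Kir6.2, had 1.09, 1.01 and 2.54 TPM in knockouts and 3.29, 2.66 and 3.44 TPM in controls (log2 -0.71, SE 0.33, not called). The adjusted p of Kcnj8 lay between 0.102 and 0.136 when 1 library other than knockout replicate 3 was left out. Kcne4, a small inhibitory partner of Kv channels, averaged 32.6 ± 0.839 TPM in knockouts and 29.1 ± 0.943 TPM in controls (log2 0.14, SE 0.05, not called). It lies on chromosome 1 from 78816758 to 78820028 (GRCm38), 4.42 Mb from Mir26b and the nearest of the 11 channel genes on that chromosome.

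Kcnq1 gave different pictures by count and by TPM. It encodes the Kv7.1 pore. In CPM (counts scaled to library size) it had 3.95, 3.82 and 3.50 in knockouts, against 2.49, 2.32 and 2.36 in controls, and by count it rose 1.57-fold (log2 0.65, SE 0.12, edgeR adjusted p = 0.0323). Its TPM were 5.06, 3.14 and 2.69 in knockouts, against 2.10, 5.63 and 3.09 in controls, and overlapped widely. The count behind 1 TPM, which follows the length of the transcripts that reads were assigned to, was 41.7, 63.9 and 68.8 in knockouts and 62.7, 21.4 and 40.1 in controls. Between 121 and 211 counts per library stood behind these values. A long antisense RNA is known to be transcribed from within Kcnq1. The labels do not say that the libraries keep strand, so reads from any sequence that both transcripts share could not be assigned to either, and the antisense RNA was not analysed here. The adjusted p was between 0.0878 and 0.133 without 1 library other than knockout replicate 3.

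Kcnk3 varied more within the groups than between them. It encodes the background (leak) potassium channel TASK-1, known from arterial smooth muscle and from brown adipocytes. Kcnk3 had 6.49, 7.94 and 19.2 TPM in knockouts, against 27.6, 13.4 and 7.83 TPM in controls (log2 -0.55, SE 0.56, edgeR adjusted p = 0.548), and the log2 difference turned to 0.06 without control replicate 1. The 8 brown fat markers, Ucp1 and Cidea among them, summed to 276, 426 and 1568 TPM in knockouts, against 2222, 1220 and 568 TPM in controls. Both were highest in control replicate 1, then in knockout replicate 3 and control replicate 2, and lowest in knockout replicate 1. The part of perivascular fat in the level of Kcnk3 was not tested.

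**Figure D3:**
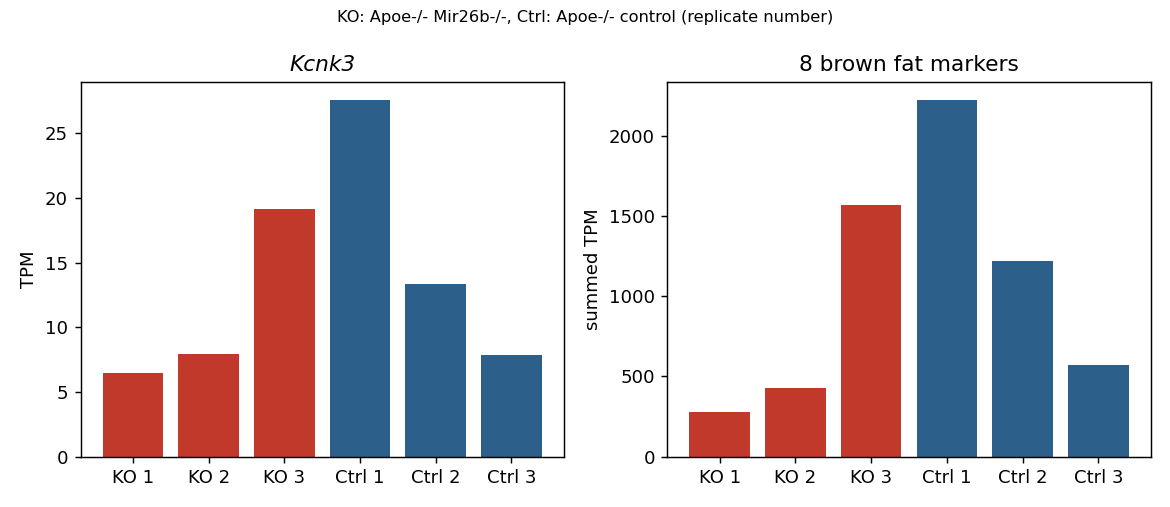
TPM of Kcnk3 (left) and summed TPM of 8 brown fat markers (right) in each library, knockouts (KO, red) left of controls (Ctrl, blue). Control replicate 1 is highest in both panels, at 27.6 and 2222 TPM, and knockout replicate 1 lowest, at 6.49 and 276 TPM.

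Potassium channel subunits known from leukocytes made up a second list. Of the 6 listed, Kcna3, the Kv1.3 channel of T cells and macrophages, averaged 0.369 TPM in knockouts and 0.141 TPM in controls and fell short of 0.5 TPM. Of the other 5, 2 rose (Kcnk13 and Kcnn4), 0 fell and 3 did not pass, where 7.09% of all rows of that level rose and 4.26% fell. All 5 log2 differences were positive with a median of 1.01, where 7470 of 15363 were positive over all rows of that level. Kcnk5 stood at -0.05 without knockout replicate 3 and at -0.02 without control replicate 1. Kcnk13 encodes THIK-1, a background potassium channel known from microglia. It had 3.18, 4.00 and 1.46 TPM in knockouts, against 0.627, 0.716 and 0.473 TPM in controls, and rose 4.64-fold (log2 2.22, SE 0.39, edgeR adjusted p = 0.0304), the largest change of any channel gene judged. Kcnn4 encodes the calcium-activated KCa3.1 channel of macrophages, T cells, endothelium and proliferating smooth muscle. It had 18.3, 19.4 and 10.02 TPM in knockouts, against 7.15, 7.94 and 7.48 TPM in controls, and rose 2.02-fold (log2 1.01, SE 0.23, edgeR adjusted p = 0.0437). Knockout replicate 3 was the lowest knockout for both genes but stood above every control. Without 1 library other than knockout replicate 3, the adjusted p lay between 0.0826 and 0.127 for Kcnk13 and between 0.103 and 0.157 for Kcnn4.

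Kcnab2, the Kv beta2 subunit, had 7.35, 9.47 and 3.43 TPM in knockouts, against 2.96, 4.30 and 2.001 TPM in controls (log2 1.25, SE 0.38, edgeR adjusted p = 0.0781). Knockout replicate 3 lay below control replicate 2 in TPM and above every control in CPM. Kcnk6, the TWIK2 channel that carries potassium efflux in macrophages, averaged 7.75 ± 1.17 TPM in knockouts and 5.95 ± 0.299 TPM in controls (log2 0.34, not called), and Kcnk5 had a log2 difference of 0.11 (not called). The list's median by library was 1.18, 1.30 and 0.40 in knockout replicates 1, 2 and 3 and between -0.08 and 0.25 in controls. The 8 macrophage markers, all called higher, stood at 1.99, 2.24 and 0.75 in the knockouts and between -0.27 and 0.14 in the controls. The 8 T cell markers, none called, summed to between 15.1 and 31.5 TPM in knockouts and between 8.82 and 24.9 TPM in controls. The part of these cells in the channel levels was not tested. Kcnt1, a sodium-activated potassium channel placed in the nerve list, followed a like order, with 3.13, 3.46 and 1.202 TPM in knockouts and 0.664, 1.65 and 1.35 TPM in controls (log2 1.07, SE 0.31, not called). Its groups overlapped in TPM but not in CPM.

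**Figure D4:**
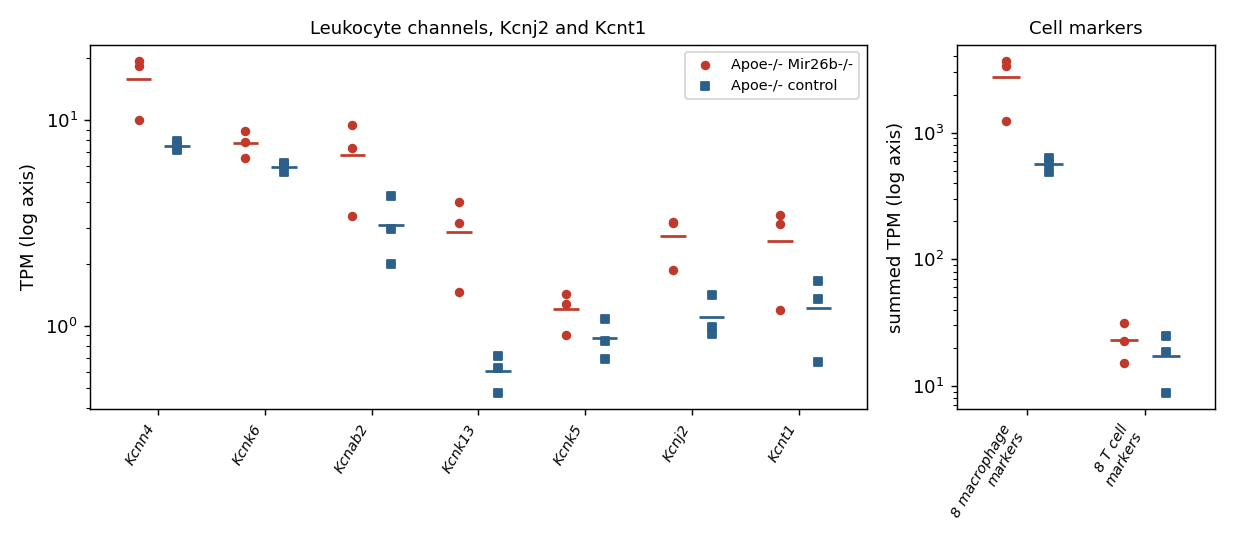
TPM (log axis) of the 5 leukocyte channel subunits judged, Kcnj2 and Kcnt1 (left) and summed TPM of 8 macrophage and 8 T cell markers (right), one point per library, knockouts (red circles) left of controls (blue squares), bars at group means. Kcnk13 lies between 1.46 and 4.00 TPM in knockouts and below 1 TPM in every control.

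Kcnj2 encodes Kir2.1, an inward rectifier of endothelium, smooth muscle, macrophages and heart muscle, and it is known from work on atrial muscle as a target of miR-26. A microRNA represses a transcript by pairing its seed, bases 2 to 8, with a complementary site, mostly in the 3′ UTR. The mature miR-26b and the related miR-26a, whose genes are not the one deleted, share that seed, shown here in capitals because it defines the sites searched (RefSeq, GRCm38.p6):
mmu-miR-26b-5p: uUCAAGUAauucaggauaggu
mmu-miR-26a-5p: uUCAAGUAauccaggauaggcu
Kcnj2 (ENSMUSG00000041695, chromosome 11, 111066164 to 111076821, plus strand, GRCm38) had 3.20, 3.17 and 1.86 TPM in knockouts, against 0.989, 0.913 and 1.41 TPM in controls. All knockouts stood above all controls, and Kcnj2 rose 2.43-fold (log2 1.28, SE 0.26, edgeR adjusted p = 0.0361). The adjusted p lay between 0.0955 and 0.141 without 1 library other than knockout replicate 3, with log2 differences between 1.162 and 1.495. Knockout replicate 3, with fewer macrophage transcripts than the other knockouts, had the lowest Kcnj2 of the knockouts, and the part of macrophages in that level was not tested. The other endothelial channel listed, Kcnn3, had overlapping groups (log2 0.02, SE 0.13, not called), and the 8 endothelial markers summed to between 771 and 866 TPM in knockouts and between 689 and 838 TPM in controls. Of these 8, 2 were called higher, Tie1 (1.45-fold) and Cdh5 (1.25-fold), both endothelial surface proteins, and the part of endothelium in the level of Kcnj2 was not tested.

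For each gene, matches to the seed were looked for in its longest annotated 3′ UTR (GENCODE mouse release M21). Of 62 channel genes with such a UTR, 15 (24.2%) held at least 1 site of 7 or 8 bases, against 20.6% of 14359 tested genes at or above 0.5 TPM, and 6 (9.68%) held the 8-base site TACTTGAA, against 4.74%. The channel UTRs were also longer, with a median of 1704 bases against 1141. The 8-base sites of 5 of these genes are shown in capitals with the transcript sequence around them, since they allow the genes with the strongest match to be compared:
Kcnj2: ctctaagagtaTACTTGAAtcagacatttt
Kcna2: tacgctgcattTACTTGAAttttaacatga
Cacnb4: tcatacctgcaTACTTGAActtgtcttttg
Cacna1c: agaaactgttaTACTTGAAttcaggtcagt
Kcnk1: ctggggacgaaTACTTGAAacagtgtactg
The site of Kcnj2 spans chr11:111076248-111076255 (GRCm38, plus strand). A second site in Kcnj2, of 7 bases, lies at 111073342 to 111073348. Of the 15 channel genes with a site, Kcnj2 was the 1 gene that rose, 0 fell and 14 did not pass. This share of 6.67% higher was near the background, since 6.25% of the 2960 genes with a site were called higher and 6.32% lower. Among the 5 genes shown with the 8-base site, the log2 differences were 1.28 for Kcnj2, 0.26 for Kcna2, -0.29 for Cacnb4, -0.42 for Cacna1c and -0.84 for Kcnk1, so Kcnj2 alone of these 5 was called and 3 had negative differences. The median log2 difference was -0.42 over the 15 channel genes with a site and -0.04 over the 47 without, where it was -0.04 and 0.00 over all genes with and without a site. A site in the sequence does not show that it is used, and the level of either microRNA was not analysed here.

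**Figure D5:**
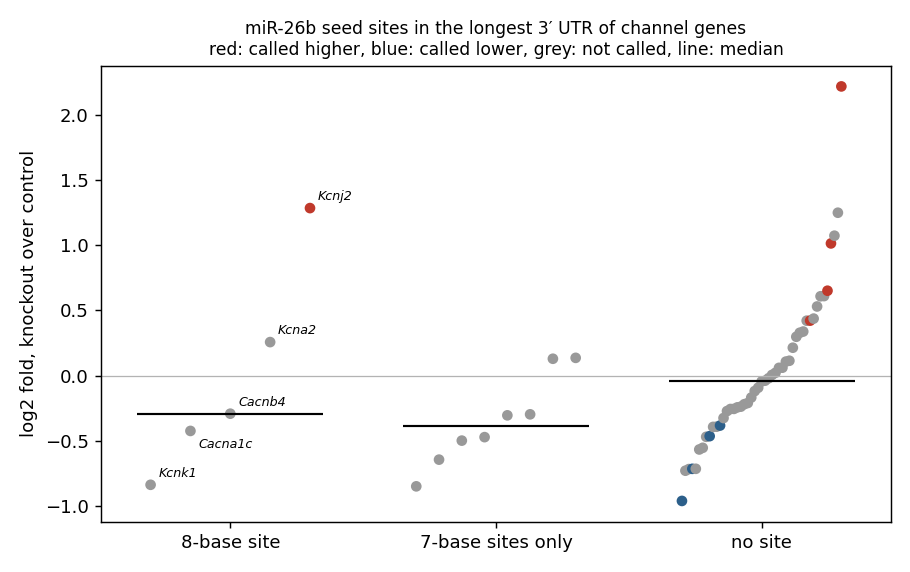
Log2 fold, knockout over control, of the channel genes by miR-26b seed site in the longest 3′ UTR: 5 genes with an 8-base site, 8 with 7-base sites only and 47 with none; lines are medians of the genes plotted, red and blue points are called higher and lower. Kcnj2 is the only called gene among those with a site, and the medians stand at -0.29, -0.39 and -0.04.

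The lists of channel subunits known from nerve and striated muscle held no called gene among those judged. Of 8 judged members of the nerve and glia list, 0 were called (median log2 -0.12). Of 3 judged members of the striated muscle list (Cacnb1, Kcnj12 and Kcnj11), 0 were called (median -0.17). At an unadjusted edgeR p under 0.05 the whole set of 64 rows held 29, where all 17392 tested rows held 5332. The nerve and glia markers summed to between 111 and 129 TPM in knockouts and between 124 and 129 TPM in controls, with 2 of the 8 called: Tubb3, a neuronal tubulin, rose 5.12-fold and Uchl1, a neuronal hydrolase with the highest level of the 8, fell 1.30-fold. The skeletal muscle markers summed to between 14.2 and 17.4 TPM in knockouts and between 14.9 and 18.9 TPM in controls. Cacng7, a calcium channel gamma subunit, had 2 rows with identical values, 11.9, 11.8 and 10.9 TPM in knockouts and 14.8, 12.8 and 13.2 TPM in controls in each (log2 -0.26, SE 0.07, not called), and Kcnn1 likewise had 2 rows with identical values, so the levels of the single copies are uncertain.

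Genes that work with these channels were listed separately. Of 29 judged partners of smooth muscle tone channels and calcium handling genes, 9 fell and 0 rose, where 4.26% of all rows of that level fell. Like the other lists, this one was chosen with earlier results of these data known, so setting its share against all rows is not a test. Of the 8 smooth muscle markers, 4 were called lower. Jph2, which ties the sarcoplasmic reticulum to the surface membrane, had 113, 107 and 130 TPM in knockouts, against 202, 190 and 213 TPM in controls, and fell 1.76-fold (log2 -0.82, SE 0.09, edgeR adjusted p = 0.0138). Ano1, the calcium-activated chloride channel that depolarises smooth muscle, fell 1.42-fold to 57.3 ± 6.14 TPM in knockouts, against 78.7 ± 1.70 TPM in controls (edgeR adjusted p = 0.0151). The calcium pump Atp2a2 fell 1.48-fold, and the calcium release channels Itpr1 and Ryr2, the surface pump Atp2b4, the cation channel Trpc1, the IP3 receptor partner Mrvi1 and the calcium channel inhibitor Rrad had log2 differences of -0.59, -0.67, -0.53, -0.37, -0.52 and -0.47, all called lower. With library size alone Itpr1 and Mrvi1 were not called (edgeR adjusted p = 0.0549 and 0.0575), and limma on log2(TPM + 1) called Ano1, Jph2, Rrad and Trpc1 of the 9. On log2(TPM + 0.1) limma called Jph2 alone of the 9. Without any 1 library other than knockout replicate 3 none of the 9 was called. Without knockout replicate 3, 14 fell and 3 rose, where 12.9% and 18.7% of all rows of that level fell and rose.

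Of 12 judged ion channels in the list of leukocyte partners, 2 rose and 2 fell, where 7.09% and 4.26% of all rows of that level rose and fell. The ATP-gated channels P2rx4 and P2rx7, which admit calcium and release potassium in macrophages, had 96.6, 105 and 67.3 TPM (P2rx4) and 19.2, 19.6 and 11.2 TPM (P2rx7) in knockouts, against 48.8, 47.9 and 47.7 TPM (P2rx4) and 10.2, 9.51 and 10.1 TPM (P2rx7) in controls. They rose 1.95-fold and 1.71-fold (edgeR adjusted p = 0.0327 and 0.0384). Tmem38b, a counter-ion channel of the sarcoplasmic and endoplasmic reticulum, and Lrrc8a, the volume-regulated anion channel, both widely expressed, fell 1.33-fold and 1.18-fold (edgeR adjusted p = 0.0188 and 0.0462), and Lrrc8a was not called with library size alone or without the low-count filter. Of these 4 genes, limma on log2(TPM + 1) called Tmem38b, with an adjusted p of 0.0505 for P2rx4 and 0.111 for P2rx7. On log2(TPM + 0.1) limma called none of the 4. Of these 12, 0 were called without any 1 library other than knockout replicate 3. Without that library 8 rose and 3 fell, where 18.7% and 12.9% of all rows of that level rose and fell.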

How the data were processed

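RNA-seq of 6 mouse aorta samples (3 per genotype) was used. The submitters' processing notes name kallisto 0.46.2, Trim Galore 0.6.5, FastQC 0.11.8 and the build GRCm38. The deposited estimated counts are not whole numbers; kallisto shares reads between similar transcripts, so levels of close paralogs are less certain. The deposited normalized TPM are treated as a signal, since their columns do not sum to 1 common total; how the authors normalized them is not given in the sources used here. Counts were rounded, low rows removed by filterByExpr at a minimum of 10, and the counts tested over all remaining rows, with TMM factors, in edgeR 4.0.16 (quasi-likelihood) in R 4.3.3, after a test on simulated data. Standard errors are the log2 fold over the root of F. CPM are counts scaled by TMM library size.

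Members and lists were chosen with earlier results of these data known. Named are called members, all judged members of the tone, leukocyte and endothelial lists, the 10 most abundant, the 2 nearest to 0.5 TPM on each side and called partner genes, except a few channel genes that are counted but not reported here by name or plotted; others, such as Kcna7, Kcnt1, Kcnj11, Kcnj12, Cacnb1 and Abcc9, and the marker genes, were named after values were seen. Alternatives were other scaling, no filter, DESeq2 1.42.0, limma 3.58.1 on log2 TPM, a replicate block, a level of 1 TPM and leaving out each library. Gene positions came from GENCODE.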

Additional observations from a re-analysis of the deposited data

How the results depend on the processing

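The channel counts, 5 higher and 4 lower, were 5 and 4 with DESeq2's size factors, with library size alone and at a level of 1 TPM, and 5 and 5 without the low-count filter. With library size alone 76.8% of calls over all rows were higher, against 62.9% with TMM. The call added without the filter was Kcnma1 (adjusted p = 0.0478). DESeq2's test called 2082 higher and 1312 lower over all rows and 14 lower channel rows. Limma on log2(TPM + 1) called 417 and 210 over all rows and 0 higher and 1 lower channel row. On log2(TPM + 0.1) it called 150 and 77 over all rows and 0 and 0 channel rows. At an unadjusted p under 0.05 this last fit held 24 channel rows and 4449 of all 17392 tested rows. The cause of these differences between methods was not tested. Leaving out 1 library gave between 0 and 3051 higher and 0 and 2028 lower over all rows, and between 0 and 10 higher and 0 and 17 lower channel rows. The tone median then ranged from -0.53 to -0.32 and the leukocyte median from 0.84 to 1.24. Fewer libraries also leave fewer residual degrees of freedom.

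With the replicate number as a block, 3 channel rows were higher and 9 lower, where 1295 and 700 of all 17392 tested rows were. Of the 9 calls without a block, 5 were shared. The tone list of 18 then had 1 higher and 6 lower, and P2rx7 and Lrrc8a were not called. Same-numbered libraries correlated at -0.12, 0.25 and 0.07 after group means were removed, and libraries with different numbers at between -0.22 and 0.14. With 3 libraries per group, these values cannot tell whether the numbers pair the samples.

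Of the named genes, 5 changed sign in some setting and none of these 5 was called. Cacna1g stood at 0.0270 and 0.0329 in the limma fits with the larger and smaller pseudocount. Over the leave-outs Cacna1g ranged from -0.287 to 0.0288, Kcnn3 from -0.109 to 0.118, Kcnk5 from -0.0493 to 0.312, Kcnk3 from -1.17 to 0.0580 and Kcna1 from -0.411 to 0.0169. Over 46 named genes and 13 alternatives, 406 log2 values kept direction and side of the threshold, 157 lost a call, 25 gained one and 10 changed sign. Counts limit the precision of the rarer channels.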
